A study of Mus musculus with 8 samples.

Results

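The 6 actin genes of the mouse (Acta1, Acta2, Actb, Actc1, Actg1 and Actg2) were followed through a study of Ba/F3 cells, which are mouse pro-B cells grown as a line and kept alive by the cytokine IL3. They were chosen by the gene name in the scanner files of either slide, which gave 12 of the 41174 probes on the array. In all, 21323 genes were named there. The genes had been proposed from the comparison of cells with and without Cxcl12, so every difference with Cxcl12 given for an actin is a description and carries no test. Differences between FLT3/ITD and wild type FLT3, and between the responses of these cells to Cxcl12, were not used in the choice and were tested.

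Actin is the protein of the thin filaments of muscle and of the microfilaments that give other cells their shape and let them move. Acta1 encodes the skeletal muscle form, Actc1 the cardiac form, and Acta2 and Actg2 the smooth muscle forms, whereas Actb and Actg1 encode the cytoplasmic forms that nearly all cells make. Cxcl12 is a chemokine that draws blood cells through its receptor Cxcr4, and movement towards it runs through assembly of actin filaments. When free actin monomers are used up in filaments, the MRTF cofactors are released from them and act with the transcription factor SRF at CArG boxes, sites found beside many actin genes.

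The cells carried wild type FLT3 or FLT3/ITD, a receptor tyrosine kinase with an internal tandem duplication that makes it active without its ligand. All cells had been grown with serum and IL3, washed, and held for 4 h in medium with albumin in place of serum, without or with Cxcl12 at 100 ng/ml. This gave 4 groups of 2 arrays (8 in all, Agilent 1-colour mouse arrays), with every group present on both slides (set 1 and set 2 below, 4 arrays each). Those of FLT3/ITD cells were labelled N51 in set 1 and N78 in set 2, so ITD type cannot be told apart from set. Nor can group be told apart from position, since the place of a group on the slide was the same in both sets. Nothing in the labels says that the arrays of a group came from separate cultures, so p-values measure the spread between these samples only, which may be technical. Levels are given as log2 intensity relative to the 75th percentile of the array (937 to 1109 in set 1, 367 to 600.0 in set 2), and 49.2% to 55.0% of an array's probes were well above background. Levels are compared between arrays for 1 probe at a time; signals of different probes met only in the choice of a gene's brightest probe and in the summed marker levels.

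Markers of the cell line and of muscle were read as a check of the labelled cell type. Of 12 pro-B and IL3 receptor markers 7 were well above background on all 8 arrays (Ptprc, Cd79a, Cd79b, Vpreb1, Il3ra, Csf2rb and Csf2rb2), while Igll1, Ebf1, Pax5 and Kit were so on none. Of 10 skeletal muscle markers 2 were above background on all arrays (Ckm and Mylpf) and Myog and Myh4 on none. Among 10 cardiac markers these were Tnni3 and Myl3, with Myh6, Tnnt2, Myl2 and Myl7 above background on none. Of 7 smooth muscle markers only Tagln was detected throughout, and Cnn1, Smtn, Lmod1, Des and Myocd were above background on no array.

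Probe positions are in mm9, as the set 2 files give them, all on the minus strand, and no exon annotation was used. No probe was compared with the transcripts of the other actin genes, so whether it also reads them was not tested. The Acta1 probe (A_51_P246854) lies at chr8:126416197-126416256, the Actc1 probe (A_51_P149469) at chr2:113874011-113874934 and the Actg2 probe (A_51_P241269) at chr6:83472853-83473179. The latter 2 cover 924 and 327 bases of genome with 60 bases of probe, so each crosses at least 1 intron. Acta2 on chromosome 19 had 5 probes. The 3 nearest the 3′ side start within 864 bases of each other: A_52_P239556 (chr19:34315196-34315254), A_52_P210078 (chr19:34315697-34315756) and A_52_P420504 (chr19:34316060-34316119). A_51_P450957 starts 7799 bases upstream of the first of these and spans 3255 bases of genome (chr19:34322995-34326249), and A_52_P644232 lies furthest upstream (chr19:34327946-34328005). A_52_P239556 and A_52_P644232 are named Acta2 in both sets, but under transcript identifiers other than that of the remaining Acta2 probes. Actg1 had 2 probes, A_51_P439803 (chr11:120207446-120207505) and A_52_P72237 (chr11:120208371-120208430). The set 2 files name both Actg1, whereas the set 1 files give them only a transcript identifier, which differs from that in set 2. Actb had A_51_P173760 (chr5:143665245-143665304) and A_51_P251154, which the set 1 files name Actb but the set 2 files give a transcript identifier on the X chromosome (chrX:148924547-148924606). That probe is reported separately, since the sequence it reads may not be Actb. The probe sequences below belong to Acta1 and Actc1, whose differences open the results, and to the Acta2 probe that departed from its neighbours; no base is marked.
Acta1 A_51_P246854: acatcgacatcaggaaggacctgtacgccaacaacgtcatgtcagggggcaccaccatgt
Actc1 A_51_P149469: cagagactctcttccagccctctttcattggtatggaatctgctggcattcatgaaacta
Acta2 A_51_P450957: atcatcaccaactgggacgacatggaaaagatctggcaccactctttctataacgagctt

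The promoters of the actins are shown because the genes differed together and because CArG boxes are the textbook element of actin genes. Of the 6 genes 4 were in the RefSeq promoter table (GRCm38.p6): Acta1 (chr8:123894776-123895025), Acta2 (chr19:34255374-34255623), Actc1 (chr2:114052876-114053125) and Actg1 (chr11:120348496-120348745), all on the minus strand. Actb and Actg2 are named only. Each run below is the 250 bases before the gene's start, 5′ to 3′, and capitals mark CArG boxes, which begin with CC, end with GG and have 6 bases between, all of them A or T or all but 1. The motif reads the same way on both strands, so 1 search covers both.
Acta1: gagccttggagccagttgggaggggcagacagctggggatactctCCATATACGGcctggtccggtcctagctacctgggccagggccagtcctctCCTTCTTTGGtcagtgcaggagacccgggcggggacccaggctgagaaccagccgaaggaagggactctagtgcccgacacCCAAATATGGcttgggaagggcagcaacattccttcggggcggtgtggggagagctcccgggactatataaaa
Actc1: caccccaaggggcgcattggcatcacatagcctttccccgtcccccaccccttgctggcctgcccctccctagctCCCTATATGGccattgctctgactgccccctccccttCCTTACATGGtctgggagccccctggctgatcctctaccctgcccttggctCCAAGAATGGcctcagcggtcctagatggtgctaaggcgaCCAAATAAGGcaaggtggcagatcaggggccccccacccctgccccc
Acta2: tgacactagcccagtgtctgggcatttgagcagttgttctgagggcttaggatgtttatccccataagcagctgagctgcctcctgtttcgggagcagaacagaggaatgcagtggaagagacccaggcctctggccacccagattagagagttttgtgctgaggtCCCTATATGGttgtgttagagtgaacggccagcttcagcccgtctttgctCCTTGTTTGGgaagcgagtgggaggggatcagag
Actg1: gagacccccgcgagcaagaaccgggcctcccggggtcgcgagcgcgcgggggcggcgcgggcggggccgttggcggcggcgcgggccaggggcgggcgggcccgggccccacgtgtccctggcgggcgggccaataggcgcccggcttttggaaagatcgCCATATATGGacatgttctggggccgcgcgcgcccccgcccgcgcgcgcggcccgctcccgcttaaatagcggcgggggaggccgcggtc

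A box with all 6 inner bases A or T stood in the windows of Acta1 (CCAAATATGG, bases 73 to 64 before the start), Actc1 (CCAAATAAGG, 47 to 38) and Actg1 (CCATATATGG, 90 to 81). Among all 32851 promoter windows of this length, 482 (1.47%) held such a box. Boxes with 5 of 6 added 2 in Acta1 and 3 in Actc1, and the Acta2 window held 2 of them (CCCTATATGG at 84 to 75 and CCTTGTTTGG at 34 to 25) and no full box. At least 1 box of either kind was in 8.59% of all windows and 2 or more were in 0.67% (220 windows). A match describes the letters of the window and is no measure of binding.

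Of the 12 actin probes 10 were well above background on all 8 arrays and none was saturated. Acta2 A_52_P239556 was above background on 5 arrays, and Acta2 A_52_P644232 on 1. The latter was left out of the fits, which hold the 21126 probes with 1 group or more in which both arrays were above background, 11 of them actin probes. Its level ran from -7.91 to -4.51.

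**Figure D1:**
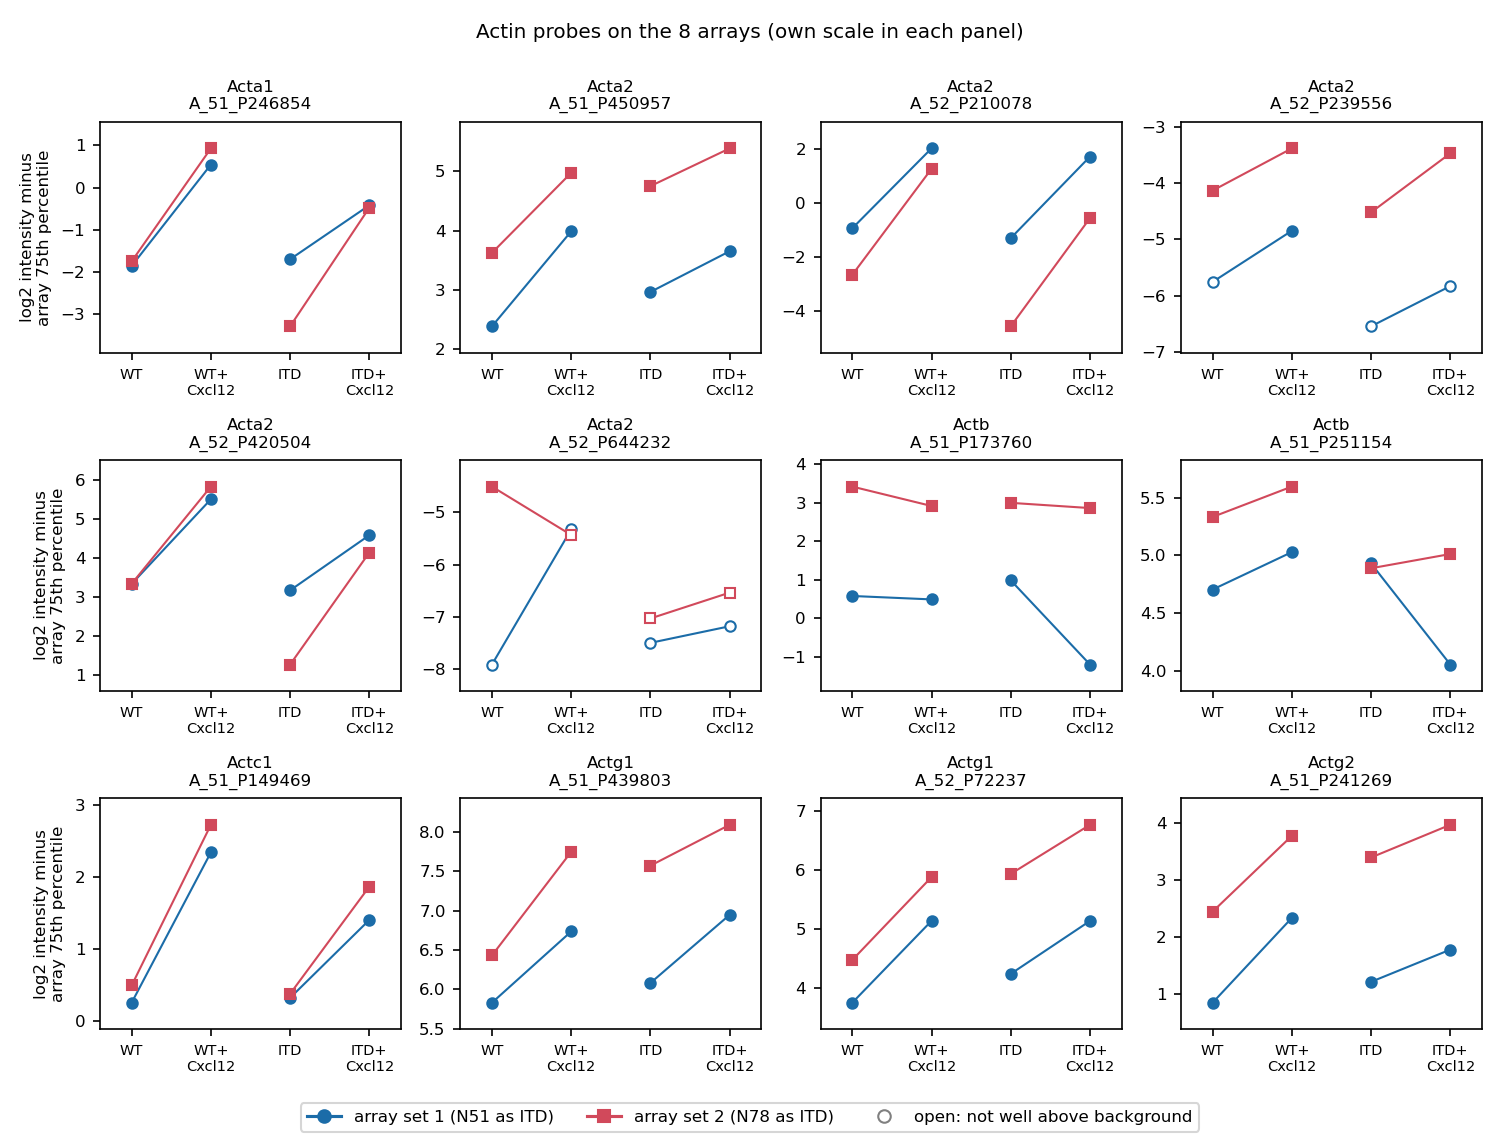
Level of each of the 12 actin probes on the 8 arrays, as log2 intensity minus the array's 75th percentile (vertical axes, 1 scale per panel), for wild type FLT3 (WT) and FLT3/ITD (ITD) cells without and with Cxcl12. Lines join the arrays of 1 set, circles are set 1, squares are set 2, and open points were not well above background; the Acta1, Actc1, Actg1 and Actg2 lines all go up with Cxcl12, whereas those of Actb A_51_P173760 all go down.

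With Cxcl12 the muscle actins Acta1, Actc1 and Acta2 were higher by 3.30-fold to 11.2-fold on the probes that differed most, Actg1 and Actg2 by about 2-fold, and Actb was not higher. Of the 11 actin probes 9 were higher in all 4 pairs of arrays matched by set and cell type, where 15% of all probes were. By more than 2-fold in every pair there were 4 (background 0.0808%), and 1 was lower in all 4 pairs (background 14.7%). Since the genes were proposed from this comparison, nothing is read from these shares. Over all probes 45 of 21126 passed in the average with minus without Cxcl12 (0.213%, limma, Benjamini-Hochberg adjusted p under 0.05).

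Acta1, the skeletal muscle actin, stood in set 1 at -1.86 in wild type FLT3 cells and -1.70 in FLT3/ITD cells, and at 0.55 and -0.42 with Cxcl12. In set 2 the same 4 values were -1.75, -3.29, 0.93 and -0.48. Every array with Cxcl12 was above every array without it, and the gap between the groups (-1.70 to -0.48) was free of arrays. In order, the groups ran from wild type FLT3 with Cxcl12, through FLT3/ITD with Cxcl12, to both kinds of cell without it, and these last overlapped, since the FLT3/ITD arrays lay on either side of the wild type pair. The average difference with Cxcl12 was 2.30 (SE 0.30; 1.85 in set 1 and 2.75 in set 2), a 4.92-fold change and the third highest of 21126 probes.

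Actc1, the cardiac actin, also stood higher with Cxcl12 on every array, with the treated groups in the same order. Without Cxcl12 its levels were 0.25 and 0.49 in wild type FLT3 cells and 0.32 and 0.38 in FLT3/ITD cells, in sets 1 and 2. With Cxcl12 they were 2.34 and 2.73 in wild type FLT3 cells and 1.40 and 1.87 in FLT3/ITD cells. The groups without Cxcl12 overlapped, and both treated groups stood apart from them and from each other. On average the difference was 1.72 (SE 0.16), or 3.30-fold, and ranked 14.

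Acta2, the smooth muscle actin of vessel walls and of contractile fibroblasts, gave the highest difference of all 21126 probes, on A_52_P210078. This probe read -0.93 in wild type FLT3 and -1.30 in FLT3/ITD cells of set 1 and -2.66 and -4.57 in set 2. With Cxcl12 the values were 2.03 and 1.73 in set 1 and 1.27 and -0.55 in set 2. All arrays with Cxcl12 lay above all arrays without it, although set 2 was lower than set 1 in each group. The average difference was 3.49 (SE 0.34; 3.0 and 3.98 by set), an 11.2-fold change. The neighbouring A_52_P420504, printed 10 times on each array with a within-array SD of 0.043 to 0.0586 over its spots, read 3.33 and 3.17 in set 1 and 3.34 and 1.26 in set 2 without Cxcl12, wild type FLT3 first. With Cxcl12 it read 5.51 and 4.59 in set 1 and 5.84 and 4.14 in set 2. Its treated and untreated arrays did not overlap either, and its average difference of 2.25 (SE 0.31), or 4.74-fold, ranked 5. The third probe at that side, A_52_P239556, was dim (-6.54 to -3.39) and gave 0.85 (SE 0.30); it entered the fits through wild type FLT3 cells with Cxcl12 alone, and was above background on 1 of 2 arrays of the wild type FLT3 group without Cxcl12 and on 1 of 2 of each FLT3/ITD group.

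Upstream on the same gene, A_51_P450957 gave a smaller difference of 1.07 (SE 0.17; 1.14 and 0.99 by set), or 2.10-fold. Its levels in set 1 were 2.39 and 2.97 without and 3.99 and 3.66 with Cxcl12, wild type FLT3 first, and 3.63, 4.75, 4.98 and 5.39 in set 2. Within each set the treated arrays were the higher ones. In wild type FLT3 cells the difference was 1.47 on this probe against 3.45 on A_52_P210078 and 2.34 on A_52_P420504, and in FLT3/ITD cells 0.66 against 3.52 and 2.15. The Acta2 probes in the fits thus disagreed on the size of the average difference but not on its direction. Whether A_51_P450957 also reads transcripts of other actin genes was not tested. Where each gene was read by its brightest probe alone, Acta2 stood by A_51_P450957 and so by the smaller difference.

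Actg2, the smooth muscle actin of the gut wall, read 0.84, 1.21, 2.33 and 1.77 in set 1 (wild type FLT3, FLT3/ITD, then both with Cxcl12) and 2.44, 3.4, 3.78 and 3.97 in set 2. Within each set both treated arrays were above both untreated ones. Set 2 was higher in each group, and its untreated arrays lay above the treated ones of set 1. The average difference was 0.99 (SE 0.18), or 1.99-fold. It was 1.41 in wild type FLT3 cells and 0.57 in FLT3/ITD cells.

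Of the cytoplasmic actins, Actg1 was higher with Cxcl12 on both probes and Actb was not. A_51_P439803 of Actg1 read 5.83, 6.08, 6.73 and 6.95 in set 1 and 6.43, 7.57, 7.74 and 8.09 in set 2, in the same order of groups. A_52_P72237 read 3.75, 4.24, 5.14 and 5.14 in set 1 and 4.48, 5.93, 5.88 and 6.76 in set 2. On that probe the treated wild type FLT3 array of set 2 lay just under the untreated FLT3/ITD array, and otherwise treated arrays were higher within a set. The average differences were 0.90 (SE 0.15), or 1.87-fold, and 1.13 (SE 0.20), or 2.19-fold.

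Actb, often used as a reference gene, read 0.58, 0.99, 0.49 and -1.19 on A_51_P173760 in set 1 and 3.41, 2.99, 2.91 and 2.86 in set 2. The level was lower with Cxcl12 in all 4 pairs, by 0.09 and 0.50 on the log2 scale in wild type FLT3 cells and by 2.18 and 0.14 in FLT3/ITD cells. The average difference was -0.73 (SE 0.29; -1.13 in set 1, -0.32 in set 2), and -0.32 without the FLT3/ITD array with Cxcl12 of set 1. This probe is also printed 10 times on each array (within-array SD 0.0243 to 0.139), and its mean was higher in set 2 than in set 1 by 2.83, more than for any other actin probe. A_51_P251154, of uncertain identity, read 4.70, 4.93, 5.03 and 4.05 in set 1 and 5.33, 4.89, 5.60 and 5.01 in set 2, with an average difference of -0.04 (SE 0.17).

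**Figure D2:**
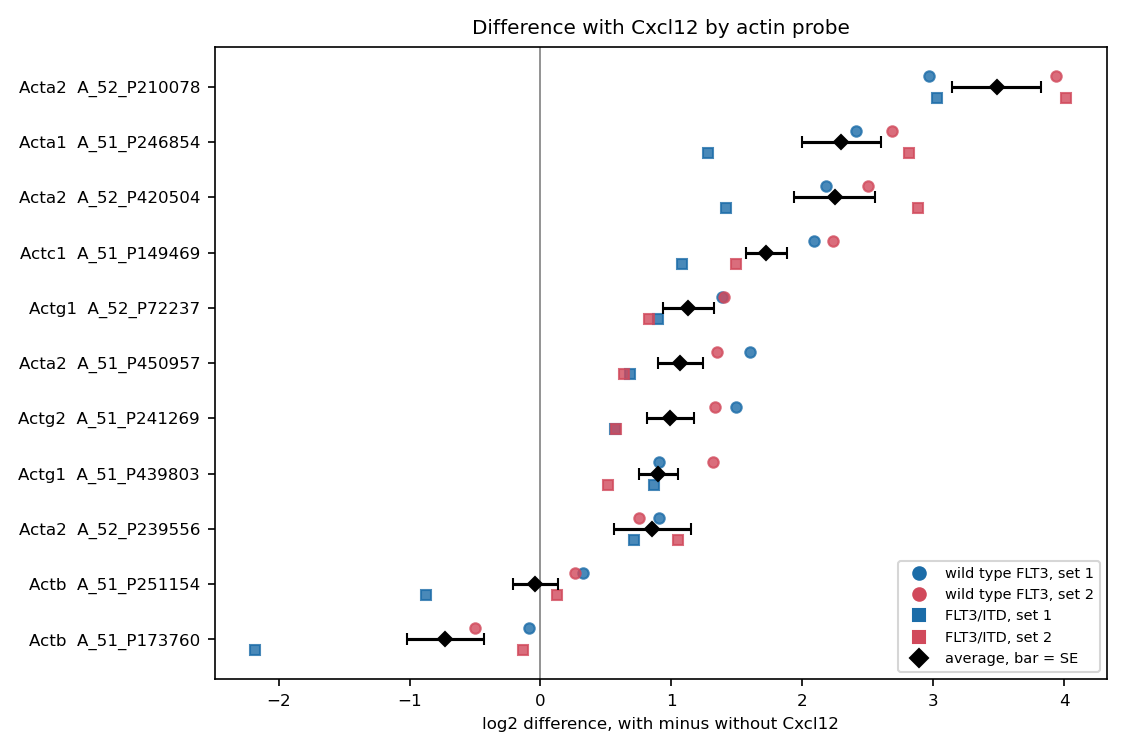
Difference with Cxcl12 (log2, with minus without; horizontal axis) for the 11 actin probes in the fits, ordered by the average. Circles are wild type FLT3 and squares FLT3/ITD cells, coloured by set, and diamonds with bars are the average and its SE; it falls from 3.49 for Acta2 A_52_P210078 to -0.73 for Actb A_51_P173760.

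The profile of each probe over the 8 arrays, with the mean of its set subtracted, put the actins in 3 bundles, which were not fully apart. Acta1 followed the Acta2 probes A_52_P420504 (r = 0.99) and A_52_P210078 (r = 0.98) and Actc1 (r = 0.96). Actc1 also followed Actg2 (r = 0.83), Acta2 A_51_P450957 (r = 0.77) and the Actg1 probes (r = 0.70 and 0.65). Acta2 A_51_P450957 followed Actg2 (r = 0.99) and the Actg1 probes (r = 0.96 and 0.97), but the other Acta2 probes only at 0.48 (A_52_P420504), 0.61 (A_52_P210078) and 0.55 (A_52_P239556). The Actg1 probes correlated at 0.98 with each other and at 0.93 and 0.94 with Actg2. Actb A_51_P173760 ran with A_51_P251154 (r = 0.76) and against the other actin probes (-0.63 to -0.17). These are Pearson correlations over 8 arrays that share slides and groups, given as a description.

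**Figure D3:**
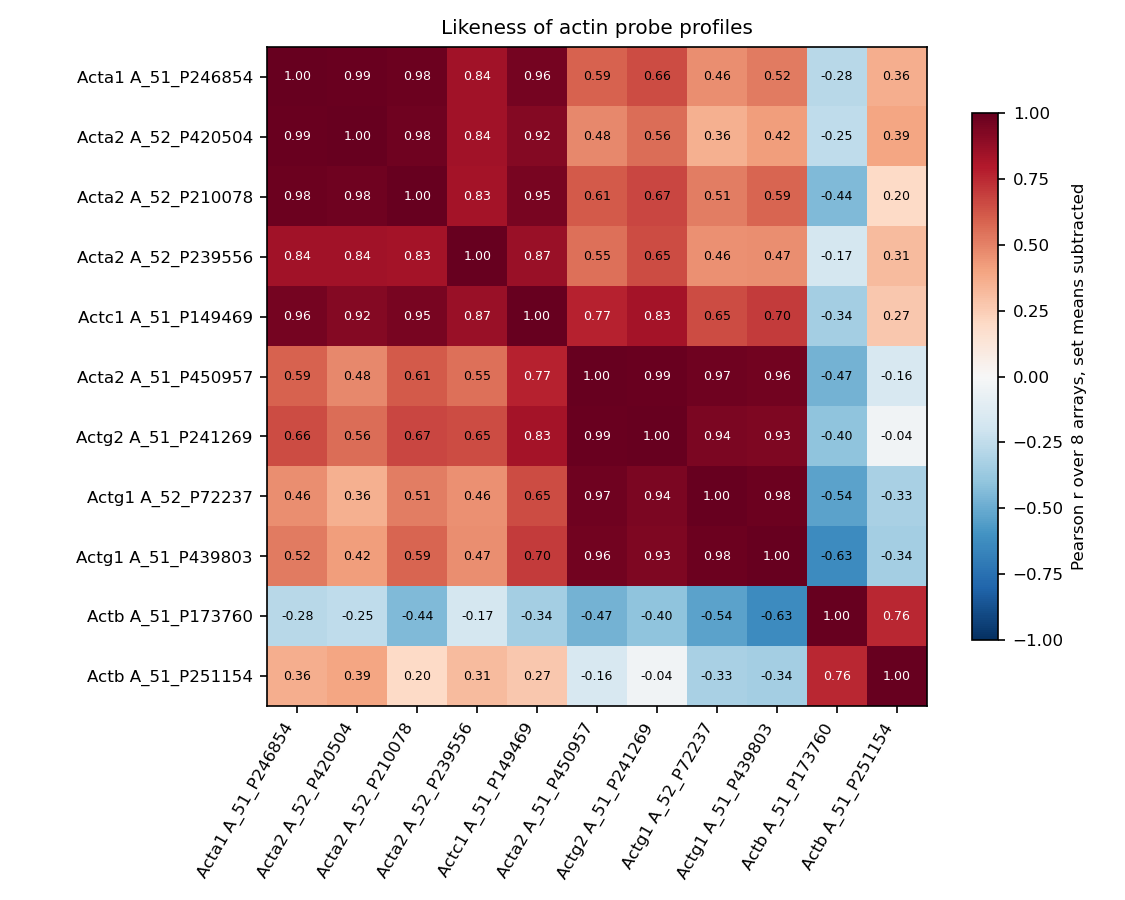
Pearson correlation between the profiles of 11 actin probes over 8 arrays after subtraction of each set's mean (colour scale from -1 to 1, value in each cell). Acta1, Actc1 and the 3 Acta2 probes at the 3′ side form 1 block. Acta2 A_51_P450957, Actg2 and Actg1 form another with all r from 0.93 to 0.99, and Actc1 is also close to Actg2 (r = 0.83).

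Outside the actins, 12043 genes were ranked by their likeness to Acta1 and to Actc1 in the same way. Among those most like Acta1 were Lipe, which encodes hormone-sensitive lipase (r = 0.976), Ikbke, a kinase of innate immune signalling (0.973), the immediate-early gene Fos (0.966) and the mismatch repair gene Pms2 (0.966). Those most like Actc1 were Tmc6 (0.975), the microRNA processing gene Dgcr8 (0.963), Lipe (0.963), Fmr1 (0.961) and Brpf3 (0.959). Among these genes Fos differed most with Cxcl12, by 1.87 (SE 0.42, adjusted p = 0.101 in limma), and Dgcr8 by 0.72 (SE 0.16, adjusted p = 0.101). The others named differed by 0.22 (Ikbke) to 0.49 (Fmr1). For these, a like shape went with differences well below those of Acta1 (2.30) and Actc1 (1.72).

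With FLT3/ITD, averaged over cells without and with Cxcl12, 0 of the 11 actin probes passed the test over all probes. The values were below those of wild type FLT3 for Acta1, Actc1, Actb and the 3 Acta2 probes at the 3′ side, and above them for Actg1, Actg2 and Acta2 A_51_P450957. Of all probes 6.02% passed (1272). At an unadjusted p under 0.05 there were 8 of the 11 actin probes, and 26.5% of all probes. The nearest to passing was Acta2 A_52_P420504 at -1.22 (SE 0.31, limma adjusted p = 0.0537). Acta2 A_52_P210078 gave -1.10 (SE 0.34, adjusted p = 0.0839) and Acta1 -0.94 (SE 0.30, adjusted p = 0.0929). For these 3 probes the lower values came mainly from set 2. Acta1 differed by 0.16 in set 1 and -1.54 in set 2 without Cxcl12, and by -0.97 and -1.41 with it. A_52_P420504 differed by -0.17 and -2.08 without Cxcl12 and by -0.92 and -1.70 with it. In set 2 the untreated FLT3/ITD array was the lowest of all 8 for both.

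Actc1 differed with FLT3/ITD by -0.46 (SE 0.16, adjusted p = 0.104), nearly all of it among cells with Cxcl12, where the pairs gave -0.94 and -0.86, against 0.07 and -0.12 without. The Actg1 probes gave 0.49 (SE 0.15, adjusted p = 0.0846) and 0.71 (SE 0.20, adjusted p = 0.0642). Acta2 A_51_P450957 again stood with Actg1, at 0.44 (SE 0.17, adjusted p = 0.140), opposite in sign to the other Acta2 probes. Actg2 gave 0.24 (SE 0.18, adjusted p = 0.431), Actb -0.44 (SE 0.29, adjusted p = 0.371), A_51_P251154 -0.45 (SE 0.17, adjusted p = 0.140) and Acta2 A_52_P239556 -0.56 (SE 0.30, adjusted p = 0.260). All 4 pairs were higher with FLT3/ITD for 1 actin probe (Actg1 A_51_P439803; background 16.4%) and lower for 3, all of Acta2 (background 18.4%). Of these 3, A_52_P239556 was not well above background on 3 arrays of set 1, so its FLT3/ITD differences rest partly on values at background. It entered the fits only through wild type FLT3 cells with Cxcl12, the only group with both arrays above background. That favours lower values with FLT3/ITD among treated cells, so nothing is read from the sign of this probe.

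Without and with Cxcl12 apart, 0 of 11 actin probes passed in either (backgrounds 0.35% and 0.729%), with 6 and 4 at an unadjusted p under 0.05 (11.8% and 18.5% of all probes). The lowest limma adjusted p was 0.242 without Cxcl12 and 0.0996, for Actc1, with it. Leaving out 1 array moved the count of actin probes passing in the average FLT3/ITD difference from 0 to as many as 5, reached without the untreated FLT3/ITD array of set 1. Those 5 were Acta1 (-1.37), Acta2 A_52_P210078 (-1.52) and A_52_P420504 (-1.68) and both Actg1 probes (0.63 and 0.87). Without the untreated wild type FLT3 array of set 1 there were 3, and without the treated FLT3/ITD array of set 2 there was 1, Actb (-0.85).

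**Figure D4:**
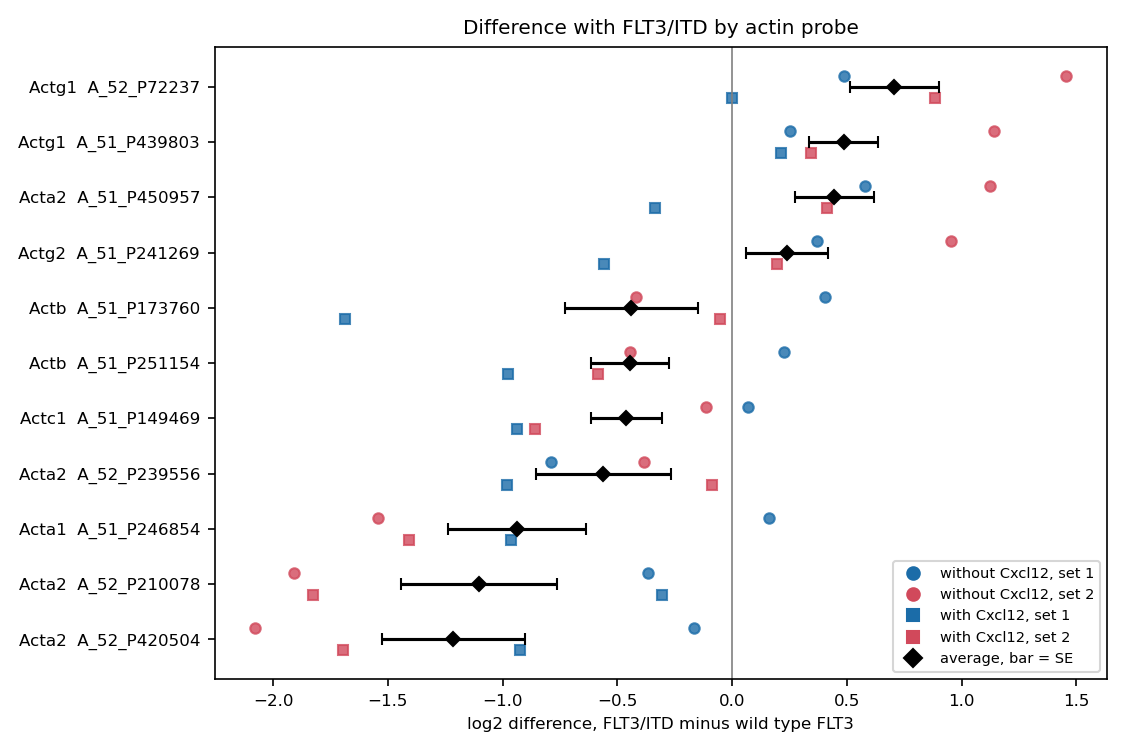
Difference with FLT3/ITD (log2, FLT3/ITD minus wild type FLT3; horizontal axis) for the 11 actin probes, circles without and squares with Cxcl12, coloured by set, and diamonds with bars for the average and its SE. The averages run from 0.71 for Actg1 A_52_P72237 to -1.22 for Acta2 A_52_P420504, and set 2 lies further from 0 than set 1 for most muscle actin probes.

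Whether the response to Cxcl12 differed between the cells was tested by the interaction, and 0 of 11 actin probes passed, as did 0 of all 21126 probes (0.0%; limma). The SEs of 0.30 to 0.68 on the actin probes, with 3 residual degrees of freedom, left little power for this test, so not passing says nothing about equal responses. At an unadjusted p under 0.05 there were 3 of 11 and 301 of all (1.42%). The 3 were Actc1 at -0.87 (SE 0.31), Actg2 at -0.84 (SE 0.36) and Acta2 A_51_P450957 at -0.81 (SE 0.34). Each had a limma adjusted p of 0.99997. These 3 interactions kept their sign but not their size with normexp background correction, at -0.24, -0.16 and -0.13 in the same order. The difference with Cxcl12 was smaller, or more negative, in FLT3/ITD than in wild type FLT3 cells for 9 of 11. Both sets gave this for 6 of 11 (background 22.2%). The median interaction over all probes was 0.035. For Actc1 the response was 2.09 and 2.23 in wild type FLT3 cells and 1.08 and 1.49 in FLT3/ITD cells, for Actg2 1.49 and 1.34 against 0.57 and 0.58. Acta2 A_52_P210078 responded alike in value, with 2.97 and 3.93 against 3.03 and 4.02, which is an interaction of 0.07 with an SE of 0.68. 

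Genes that act on actin or answer to it were read from 4 lists, chosen with earlier results of these data known. SRF, its cofactors and targets other than actins had 22 of 32 genes tested, of which 1 rose and 0 fell with Cxcl12 in the average over both cells. That gene was Cnn2, a calponin that binds actin filaments, at 1.29 (SE 0.18, limma adjusted p = 0.0356; 1.19 and 1.39 by set). The difference was positive for 21 of the 22 and the median was 0.42, where that of all probes was -0.005. Among those that did not pass, the immediate-early genes Egr2 and Fos stood at 2.70 and 1.87 (adjusted p = 0.113 and 0.101), and both were larger in set 2 (4.38 and 2.66) than in set 1 (1.02 and 1.08). The filament proteins Tpm4, a tropomyosin, and Flna, a filamin, stood at 0.83 and 0.54 (adjusted p = 0.0779 and 0.0933), Zyx at 0.73 and Srf itself at 0.56. Mrtfa and Mrtfb, the cofactors that bind actin monomers, stood at 0.20 and -0.06, the latter from 0.83 in set 1 and -0.94 in set 2, and both had the other sign with normexp background correction (-0.12 and 0.41). Cnn2 lost its call with that correction (0.91) and without any 1 of 5 arrays: FLT3/ITD of set 1 (1.26) or set 2 (1.31), FLT3/ITD with Cxcl12 of set 1 (1.18), wild type FLT3 of set 2 (1.20) or wild type FLT3 with Cxcl12 of set 2 (1.11). Fos passed in the authors' deposited values (1.88), with normexp (1.33) and without the FLT3/ITD array of set 1 (2.55), Egr2 in the first 2 of these (2.71 and 2.01), and Tpm4 without the treated FLT3/ITD array of set 2 (0.96). Between FLT3/ITD and wild type FLT3, 1 gene of the list fell, the SRF partner Elk3 (-1.01, SE 0.20, adjusted p = 0.0269), and the median was -0.03. Elk3 lost its call with normexp (-0.61) and without any 1 array of set 2, at -0.99 (wild type FLT3), -0.85 (FLT3/ITD), -0.76 and -0.91 (the same cells with Cxcl12). The genes of this list other than Cnn2 and Elk3 were picked for mention after their values were seen.

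Monomer binding and filament turnover had 23 of 25 genes tested, and 0 rose or fell with Cxcl12, with a median of 0.10. The highest were Coro1c and Twf1, at 0.52 and 0.51 (adjusted p = 0.272 and 0.210). With FLT3/ITD 1 of them rose, Pfn1, the profilin that loads monomers onto filament ends, by 0.61 (SE 0.14, adjusted p = 0.0357), a call lost with quantile normalization (0.49), with normexp (0.94) and without any 1 of the 8 arrays (0.58 to 0.64). The Arp2/3 complex and other nucleators, which start filaments, had 22 of 24 tested, with 0 past the test with Cxcl12 and a median of 0.02. Its largest values there were the formins Fmnl1 and Diaph2, at -0.62 and -0.56 (adjusted p = 0.301 and 0.142). Diaph2 fell with FLT3/ITD, by 0.70 on the log2 scale (SE 0.15, adjusted p = 0.0328), and lost its call with normexp (-0.46), with the authors' deposited values (-0.57) and without any 1 array other than the treated FLT3/ITD array of set 2 (-0.75 to -0.65 over all 8).

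Folding and modification of actin had 17 of 18 genes tested, and again 0 passed with Cxcl12, with a median of -0.03. Naa80, which acetylates the actin N-terminus, stood at -0.46 and the prefoldin subunit Pfdn4 at 0.40 (adjusted p = 0.278 and 0.529). With FLT3/ITD 1 rose, the chaperonin subunit Cct3 (0.89, SE 0.19, adjusted p = 0.0306), 14 of 17 were positive, and the median was 0.31 against -0.02 over all probes. Cct3 kept its call without either untreated array of set 1 (0.95 and 1.07) and lost it with normexp (1.22) and without any 1 of the other 6 arrays (0.72 to 1.06). Each list's share that passed with Cxcl12 is set beside 0.213% of all probes, and with FLT3/ITD beside 6.02%.

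**Figure D5:**
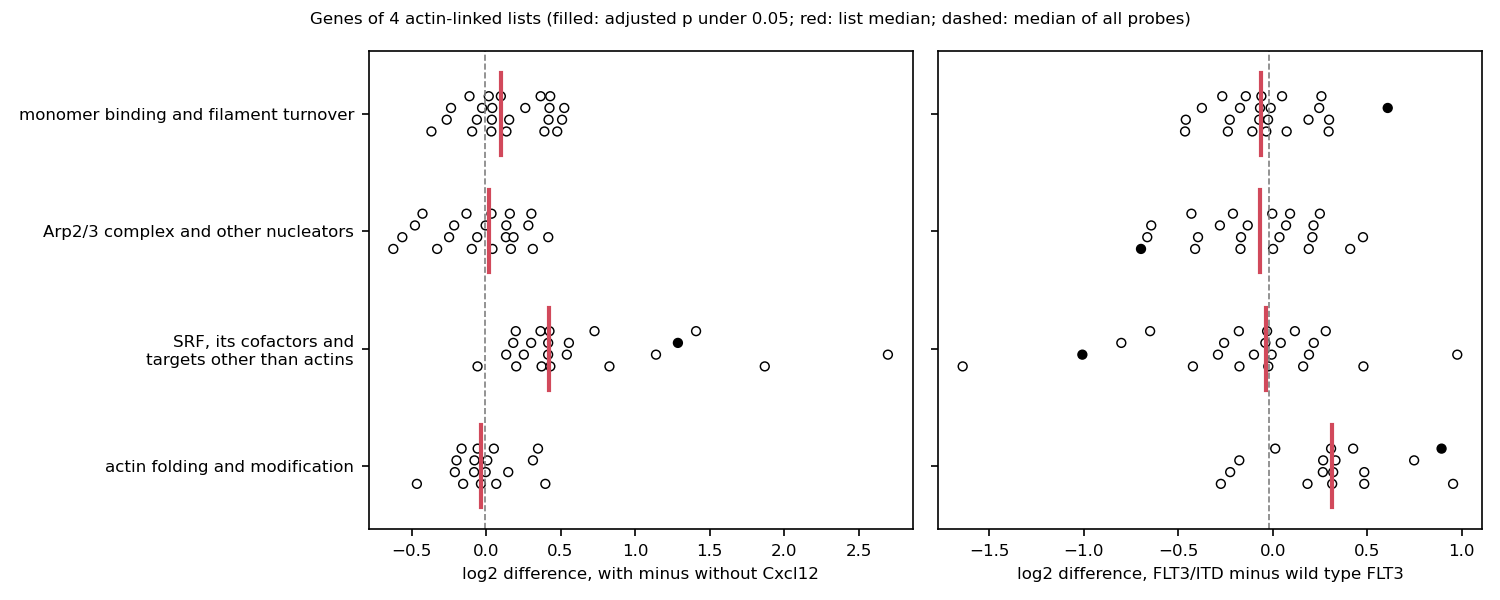
Difference with Cxcl12 (left) and with FLT3/ITD (right), both log2, for the tested genes of 4 actin-linked lists, 1 point per gene, filled where the adjusted p was under 0.05. Red lines are list medians and the dashed line is the median of all probes; with Cxcl12 the SRF list lies to the right (median 0.42) and the others near 0.

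Muscle markers were set beside the muscle actins. Over all probes 0.213% passed with Cxcl12 and 6.02% with FLT3/ITD, the backgrounds for the marker counts that follow. With Cxcl12 0 of 4 skeletal markers tested passed, and Ckm and Mylpf stood at 0.17 and 0.39 (adjusted p = 0.664 and 0.590). Of 5 cardiac markers tested 1 fell, Tnnc1 (-1.57, SE 0.24, adjusted p = 0.0450; above background on 6 of 8 arrays), and 0 were positive. Tagln, the only smooth muscle marker tested and also a member of the SRF list, stood at 0.18, with 1.04 in set 1 and -0.67 in set 2. As log2 of the summed level, the skeletal markers ran from 1.09 to 1.96 in wild type FLT3 cells without and from 1.15 to 2.27 with Cxcl12. In FLT3/ITD cells they ran from 1.0 to 2.73 without and from 1.19 to 2.89 with it. These ranges overlapped, but each joins 1 array of each set, so the pairing by set is not used in them. Both ends of the range were higher with Cxcl12 in both kinds of cell. The cardiac markers ran from -0.25 to -0.19 and from -0.60 to -0.49 in wild type FLT3 cells, without and with Cxcl12, and from -0.12 to -0.02 and -0.51 to -0.47 in FLT3/ITD cells. The smooth muscle markers ran from -1.94 to 0.62 and from -2.20 to -0.44 in wild type FLT3 cells, without and with Cxcl12. In FLT3/ITD cells these ran from -2.25 to 0.19 and from -0.25 to 0.07. The pro-B and IL3 markers ran from 8.680 to 8.683 and from 8.80 to 9.27 in wild type FLT3 cells. In FLT3/ITD cells they ran from 8.04 to 8.15 and from 8.51 to 8.55. These pro-B sums were higher with Cxcl12, without overlap, in both kinds of cell. With FLT3/ITD 1 of 4 skeletal markers tested rose, Ckm, by 0.67 (SE 0.16, adjusted p = 0.0460). Tnnc1 lost its call with normexp (-0.15) and quantile normalization (-1.60) and without any 1 of 7 arrays (-1.66 to -1.49 over all 8), and Ckm lost its call with quantile normalization (0.62) and without any 1 array other than the untreated wild type FLT3 array of set 1 (0.58 to 0.76 over all 8). Of 8 pro-B and IL3 markers tested, 0 passed with Cxcl12, where 5 were positive and the median was 0.11. With FLT3/ITD 2 fell and 0 rose, 3 of the 8 were positive and the list median was -0.25. The 2 that fell were Ptprc, the leukocyte phosphatase CD45 (-0.55, SE 0.13, adjusted p = 0.0419), and Csf2rb2, an IL3 receptor chain (-0.60, SE 0.13, adjusted p = 0.0329). Both lost their call with normexp (-0.18 and -0.22) and with the authors' deposited values (-0.43 and -0.47), Ptprc without any 1 array (-0.58 to -0.52) and Csf2rb2 without any 1 other than the untreated FLT3/ITD array of set 1 (-0.73 to -0.47 over all 8). The part of muscle-like cells or RNA, or of the pro-B marker differences, in the actin differences was not tested beyond these values. In bulk RNA, fewer cells of a type and less RNA per cell cannot be told apart.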

How the data were processed

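Total RNA from 8 samples was hybridised to Agilent 1-colour arrays. The deposited values are processed intensities, which Agilent Feature Extraction had background-corrected on each array, per the file headers; the software and genome build differed between the sets. The authors' tables hold deposited normalized signals, log2-comparable to 1 array each (99.7 to 99.9% of probes within 0.01), with column medians of 100 in set 1 and 1 in set 2, and served as an alternative. Whether further steps were applied to them is not given in the sources used here.

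Here log2 of the intensity was taken, and the 75th percentile of each array was subtracted. Control spots and the 93 to 203 outlier spots per array were left out, and spots of a probe were averaged (45018 spots, 43379 of them of 41174 probes). Probes entered the fits if any group had both its arrays well above background (21126). Genes were named by accession (27698 probes), symbol (5632) or synonym (906) in the RefSeq gene table, or by the file alone (1258), and 5680 probes had no name. limma 3.58.1 (R 4.3.3) fitted 4 group means and a block for the array set (eBayes, trended on intensity), on 3 residual degrees of freedom, and p-values were adjusted by Benjamini-Hochberg over all kept probes. Probes passed at an adjusted p under 0.05, and only such genes are said to have risen or fallen. The fit was tested on simulated data.

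Samples were paired by slide, as the headers record it. Deviations from the group means correlated at 0.744 to 0.882 within a set, and arrays of a slide correlated at 0.953 to 0.989 against 0.909 to 0.937 within a group. The members, the gene lists and the tests were chosen with earlier results of these data known. Named genes were all actin probes, up to 4 genes past the test per list and comparison (otherwise the 2 with the largest difference) and the 5 genes most like Acta1 and Actc1; an item under this rule is not reported here. Alternatives were normexp (offset 50), quantile normalization, the authors' tables, no filter on dim probes, 1 probe per gene, no block, and each array left out.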

Additional observations from a re-analysis of the deposited data

How the results depend on the processing

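The 2 arrays per group and 3 residual degrees of freedom limit every test. For the 10 actin probes other than A_51_P251154 (-0.35 to 0.15) the difference with Cxcl12 kept its sign under every alternative run. The range was 2.50 to 3.91 for Acta2 A_52_P210078, 1.69 to 2.73 for Acta1 and 1.34 to 1.80 for Actc1. The genes were proposed from this comparison and the alternatives use the same arrays, so nothing is read from the kept signs. The average FLT3/ITD difference kept its sign for all 11 but not its size. Lowest and highest were -1.37 and -0.50 for Acta1 and -1.68 and -0.75 for Acta2 A_52_P420504. The higher values of these came without the untreated FLT3/ITD array of set 2. With the higher value from normexp, they were -1.52 and -0.55 for Acta2 A_52_P210078, -0.54 and -0.10 for Actc1 and -0.64 and -0.035 for A_51_P251154. For Actb they were -0.85 and -0.031 (the latter without the treated FLT3/ITD array of set 1), for Actg2 0.10 and 0.64, for Acta2 A_51_P450957 0.30 and 0.80, and for the Actg1 probes 0.33 and 0.88, and 0.54 and 1.11.

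Counts of probes past the threshold moved more. The FLT3/ITD average, 1272 in all, gave 492 with normexp and 285 with no filter, and 195 to 1518 when 1 array was left out. Among actin probes 2 passed with the authors' tables (Acta2 A_52_P420504 and Actg1 A_52_P72237), and 0 to 5 when 1 array was left out. The Cxcl12 average, 45 in all, gave 111 with normexp, 197 with the authors' tables, 2 with no filter, 75 with 1 probe per gene and 4 to 289 when 1 array was left out. The interaction, 0 in all, gave 7 with normexp and 0 to 18 when 1 array was left out, and 0 actin probes throughout. Without the array set as a replicate block, 0 probes passed in the FLT3/ITD average, the Cxcl12 average and the interaction, with 1004, 429 and 12 at an unadjusted p under 0.05. The authors' tables shifted the median FLT3/ITD difference of all probes to 0.11 and the interaction to -0.18, and no filter shifted the Cxcl12 median to 0.14; the split of FLT3/ITD calls, 686 higher and 586 lower, became 1316 and 513 with the authors' tables.

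The interaction changed sign for some actin probes, none of which passed. Acta2 A_52_P210078 (0.07) gave -0.10 with quantile normalization and -0.15 with the authors' tables, and -0.77 to 0.91 when 1 array was left out. Acta2 A_52_P239556 (0.05) gave -0.82 with normexp and -0.17 with both others, and -0.27 to 0.38 when 1 array was left out. Acta2 A_52_P420504 (-0.19) gave 0.48 with normexp and -1.12 to 0.75 when 1 array was left out, and Acta1 (-0.50) gave -1.36 to 0.37. With normexp A_51_P251154 gave 0.058 and the Actg1 probes 0.29 and 0.19. With Cxcl12, Mrtfa gave -0.12 and Mrtfb 0.41 with normexp, and Mrtfb (-0.06) -0.44 to 0.32 when 1 array was left out. With no filter on dim probes, Cnn2, Elk3, Pfn1, Diaph2, Cct3, Tnnc1, Ckm, Ptprc and Csf2rb2 did not pass either. The causes were not tested.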

Other observations

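One Acta2 probe entered no comparison, because it was well above background on 1 of 8 arrays. A_52_P644232 lies at the 5′ side of the other Acta2 probes. It read -7.91 in wild type FLT3 cells, -7.50 in FLT3/ITD cells, -5.33 in wild type FLT3 cells with Cxcl12 and -7.18 in FLT3/ITD cells with Cxcl12 in set 1. In set 2 the same groups read -4.51, -7.03, -5.44 and -6.54, and the array above background was that of wild type FLT3 cells without Cxcl12. With Cxcl12 this probe was higher in 3 of 4 pairs, at 2.58, 0.32 and 0.49, and lower in the fourth, at -0.92.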
